A study of Schizosaccharomyces pombe with 4 samples.

Results

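The outer flanks of the heterochromatin domain that surrounds ura4 on chromosome III of Schizosaccharomyces pombe were described across 4 H3K9me3 ChIP arrays. They were chosen by array position: the non-control tiles at 60000 to 99000 (left flank, 131 tiles) and at 147300 to 199800 (right flank, 175 tiles), which makes 306 of the 41551 tiles on the array. The 160 tiles between them hold the domain itself. The domain's edges had been set from H3K9me3 levels of the ON arrays. ON levels next to the edges, and differences that use them, are therefore given as a description only. The OFF arrays took no part in setting the edges, but the flanks were chosen with earlier results of these data known.

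The study mapped H3K9me3 in 4 groups, clr3-CDx2 OFF, clr3-CDx2 ON, wt OFF and wt ON, with 1 array each. All 4 carry tetR-clr4, by its name a fusion of the bacterial Tet repressor with Clr4. Cells were grown in EMM, a minimal medium, at 32 °C for 20 generations without thiamine, and then for 5 generations with 850 µg/ml of 5-fluoroorotic acid, which kills cells that express ura4. ON cells were taken from the culture at that point and fixed with paraformaldehyde at 3%. The remainder received thiamine at 5 µg/ml together with tetracycline at 2.5 µg/ml, and OFF cells were fixed after another 14 generations. Thiamine represses nmt-type promoters and tetracycline releases the Tet repressor from its operators. OFF cells were harvested later than ON cells, and 5-fluoroorotic acid is not named for their last growth, so the switch, the time and the end of that selection cannot be told apart. What clr3-CDx2 changes in the clr3 gene is not stated in the labels. Its 8 tiles read -1.32 in clr3-CDx2 OFF and -1.39 in clr3-CDx2 ON, against 0.65 in wt OFF and 0.55 in wt ON, so the arrays differ at that locus along with the genotype labels.

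Clr4 is the only H3K9 methyltransferase of fission yeast. Its chromodomain binds the mark it makes, which lets methylation spread along chromatin from a nucleation site and be copied onto newly deposited histones. Clr3 is a histone deacetylase of the SHREC complex, and removal of acetyl groups from H3 favours the spread and maintenance of the mark. Spreading is held in check by boundaries, among them tRNA genes that bind TFIIIC through a B box, by the anti-silencing factor Epe1 and by active transcription. Flanks of a domain are therefore where its reach, and the retreat of its edges, can be seen.

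Each value below is a level or a difference of levels. A level is the log2 ratio of ChIP (Cy5) to input (Cy3) signal of a 60-base tile, less the median of all tiles of that array. A difference is taken tile by tile between 2 arrays and summarised by its median. Tiles are spaced 300 bp apart and chromatin was sheared to about 1000 bp, so neighbouring tiles read overlapping fragments. There is 1 array per group, so replicate error is unknown for every difference and no test was made. A change of at least 2-fold, 1 on the log2 scale, was counted as a call. Distances are measured outwards from the last tile of the domain, at 99300 on the left and 147000 on the right.

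Median levels on the same arrays give the range of the scale. Repeated tiles of the pericentromeres, which are constitutive heterochromatin, had a median of 3.97 in clr3-CDx2 OFF, 3.46 in clr3-CDx2 ON, 4.56 in wt OFF and 3.58 in wt ON. There are 294 such tiles, and many lost their value on some arrays when marked spots were dropped. Each of these medians therefore rests on its own set of tiles, and subtracting them does not give the tile-by-tile differences. Taken tile by tile, OFF minus ON had a median of 1.46 in clr3-CDx2 (205 tiles) and 0.73 in wt (199 tiles). The median was -0.80 for clr3-CDx2 ON minus wt ON (212 tiles) and -0.13 for clr3-CDx2 OFF minus wt OFF (206 tiles). The arrays thus differed in this reference too. Whole-flank values that moved after scaling to these tiles are given in the closing section. That scaling used each array's own median, so it too rests on unmatched sets of tiles. The 9 measured genes of a list of 12 euchromatic controls had medians of -1.30 in clr3-CDx2 OFF, -1.61 in clr3-CDx2 ON, -0.91 in wt OFF and -1.37 in wt ON. They were not uniformly low. In the same order they ranged from -2.14 to 0.55, -2.71 to 0.64, -2.44 to 0.60 and -2.57 to 0.71, with cdc2 the highest on each array. The domain itself read 1.70 in clr3-CDx2 OFF, 1.66 in clr3-CDx2 ON, 0.02 in wt OFF and 2.64 in wt ON. In the flanks, 8 spots in all were marked non-uniform and left out on the array concerned (4 in clr3-CDx2 OFF, 1 in clr3-CDx2 ON, 2 in wt OFF and 1 in wt ON), and all 306 tiles were well above background on every array. The array's build is not named, and its positions run past the end of the reference chromosome. Genes were therefore assigned to tiles by a shift of 180 bp for the whole left arm, the one at which input signal followed GC content most closely. The correlation was 0.231 at this shift and at most 0.102 further than 1 kb away. The precision of the placement within 1 kb was not measured.

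The sequences next to the edges are shown because they are the first gaps between protein-coding genes beyond each edge, and the tRNA gene because such genes can act as boundaries. All 3 were read from the reference assembly ASM294v3 by its gene annotation, 5′ to 3′ on the plus strand. The first stretch is the centre of the gap between qcr2 and meu23 (chrIII:98242-98541), beyond the left edge. The second is the centre of the gap between srp72 and hem15 (chrIII:148198-148497), beyond the right edge, which overlaps the annotated non-coding gene SPNCRNA.6724. The third is SPCTRNAHIS.03 (chrIII:71400-71471), a histidine tRNA gene and the only annotated tRNA gene in either flank. Capitals mark the B box.
qcr2-meu23: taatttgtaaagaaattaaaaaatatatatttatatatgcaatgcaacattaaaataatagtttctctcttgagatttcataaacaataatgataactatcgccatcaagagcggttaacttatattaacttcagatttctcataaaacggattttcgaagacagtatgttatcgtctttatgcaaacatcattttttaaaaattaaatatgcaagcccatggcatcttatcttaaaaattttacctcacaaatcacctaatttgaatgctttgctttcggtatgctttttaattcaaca
srp72-hem15: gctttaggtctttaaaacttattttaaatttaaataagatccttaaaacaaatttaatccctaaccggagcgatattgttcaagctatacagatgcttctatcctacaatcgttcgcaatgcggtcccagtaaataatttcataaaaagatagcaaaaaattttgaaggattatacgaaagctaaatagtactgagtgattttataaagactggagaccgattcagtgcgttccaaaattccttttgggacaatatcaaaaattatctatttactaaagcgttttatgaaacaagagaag
SPCTRNAHIS.03: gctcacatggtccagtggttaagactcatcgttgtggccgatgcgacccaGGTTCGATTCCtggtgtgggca
The B box was searched on both strands as GGTTCGANNCC and the core of a CRE, the site of ATF/CREB factors, as TGACGT, and neither motif contains the other. Neither gap stretch holds either motif. Across the genome, 20 of 2317 gap centres of the same length hold the B box letters (0.863%) and 88 hold the CRE letters (3.80%), while 97 of 171 annotated tRNA genes match the B box (56.7%). In SPCTRNAHIS.03 the match spans bases 51 to 61.

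Single tiles next to these stretches give examples of the levels on the 4 arrays. At array position 98400, 0.9 kb beyond the left edge, the level was 0.40 in clr3-CDx2 OFF, 0.12 in clr3-CDx2 ON, -0.90 in wt OFF and 0.80 in wt ON. At 148200, 1.2 kb beyond the right edge, it was 0.55 in clr3-CDx2 OFF, 0.48 in clr3-CDx2 ON, -0.16 in wt OFF and 0.57 in wt ON. At both places wt OFF was the lowest array, and clr3-CDx2 OFF stood above clr3-CDx2 ON. Neither order held throughout the flanks. At 147900, the other tile next to the second stretch, clr3-CDx2 OFF (0.638) was just below clr3-CDx2 ON (0.647). At 24 to 36 kb on the left, the median was -0.88 in clr3-CDx2 ON and -0.75 in wt OFF. The 4 tiles within 600 bp of SPCTRNAHIS.03, 27.6 to 28.5 kb from the left edge, had median levels of -1.01, -1.27, -1.46 and -1.29 in clr3-CDx2 OFF, clr3-CDx2 ON, wt OFF and wt ON, all below the array medians.

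The tiles just inside and just outside the edges describe the choice. On the left, the 3 tiles just inside the edge had a median of 1.496 in clr3-CDx2 OFF, 1.27 in clr3-CDx2 ON, 0.20 in wt OFF and 1.90 in wt ON, and the 10 tiles just outside 0.48, 0.28, -0.44 and 0.94 in the same order. On the right, the 3 tiles inside had medians of 0.82, 0.95, 0.25 and 1.06 and the 10 outside 0.75, 0.80, 0.00 and 0.80. The ON values are those from which the edges were set, so they support no statement on the edges.

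Within the flanks, the level did not decline evenly with distance. The profiles of 3 kb medians were alike in their main peaks and dips, though not in every step, and Spearman's rho of the level between any pair of arrays was 0.86 to 0.95 over the left flank and 0.93 to 0.97 over the right. These are descriptions over neighbouring tiles, which share fragments and probe sequence. From 36 kb outwards on the left, for example, the medians of both ON arrays were above those of the step before and the medians of both OFF arrays below. The left flank was mostly above the array median out to 21 kb in clr3-CDx2 OFF, clr3-CDx2 ON and wt ON, with a dip at 9 to 12 kb, where the medians were -0.26, -0.45, -0.26 and 0.19 in clr3-CDx2 OFF, clr3-CDx2 ON, wt OFF and wt ON. It was low beyond 21 kb on all 4 arrays: the step at 18 to 21 kb had medians of 1.08 in clr3-CDx2 OFF, 0.94 in clr3-CDx2 ON, 0.49 in wt OFF and 1.01 in wt ON, and the next step outwards -0.84, -1.06, -1.23 and -0.80. The right flank had high steps at 9 to 12, 36 to 39 and 48 to 51 kb and its lowest step at 24 to 27 kb, where the medians were -1.43, -1.60, -2.003 and -1.44.

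**Figure D1:**
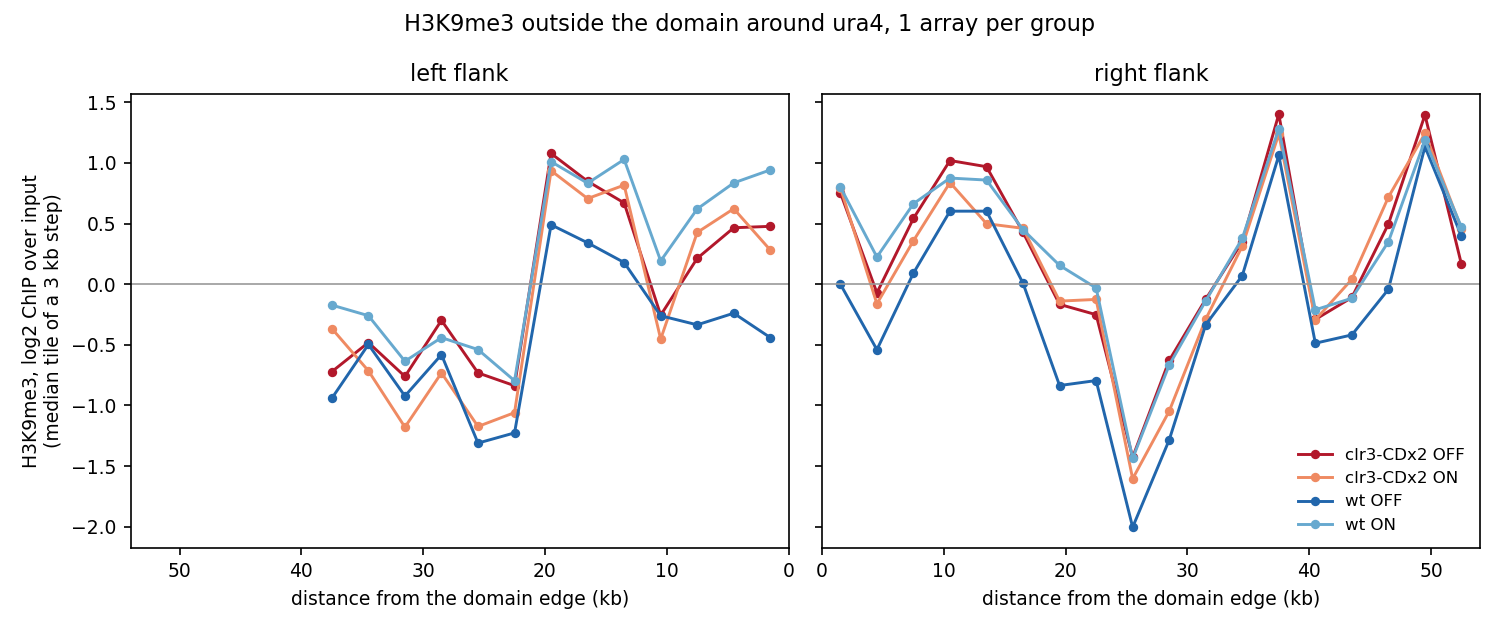
H3K9me3 level (log2 ChIP over input, array-median centred, median of the tiles of a 3 kb step) against distance from the domain edge in kb, left flank in the left panel and right flank in the right panel, 1 line per array. The lines are alike in their main peaks and dips but part at single steps, such as the outermost left one, and wt OFF runs below wt ON in every step, at -0.44 against 0.94 in the first left step and at 0.40 against 0.47 in the last right step.

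In wt cells, H3K9me3 was lower in OFF than in ON throughout the left flank and nearly throughout the right. The median level of the left flank was -0.46 in wt OFF, against 0.10 in wt ON, and that of the right flank -0.11 in wt OFF, against 0.33 in wt ON. The median difference was -0.58 on the left (95% interval of the median over tiles, -0.70 to -0.53) and -0.36 on the right (-0.41 to -0.31). It was below 0 at 130 of 130 left tiles and at 168 of 173 right tiles. Over the 39818 other arm tiles of the genome the median was 0.04, with 41.9% below 0, and over the rest of the left arm of chromosome III it was 0.06. The interval treats tiles as independent, although neighbours share fragments, so it is likely too narrow even for the scatter along the sequence. It does not cover the scatter between cultures.

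The difference in wt was largest next to the left edge and uneven along the right flank. On the left its median was -1.31 within 6 kb, -0.83 at 6 to 12 kb, -0.56 at 12 to 24 kb and -0.34 at 24 to 36 kb, and -0.81 over the last 11 tiles, at 36 to 39.3 kb. On the right it was -0.76, -0.39, -0.50 and -0.37 over the same distances and -0.23 beyond 36 kb. Spearman's rho of the difference with distance was 0.59 on the left (130 tiles) and 0.63 on the right (173 tiles), again a description over tiles that share fragments. The differences next to the edges include the ON levels from which the edges were set, so their size there is in part tied to that choice. Runs from the edge at -0.5 or less reached 9.0 kb on the left (30 tiles, of which that at 97500 was marked in wt ON and not measured) and 5.7 kb on the right (19 tiles). Without the tiles within 3 kb of an edge the flank medians were -0.55 on the left and -0.35 on the right.

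A difference below 0 went on past the limits of the flanks. In the 20 kb further out, the median in wt was -0.25 on the left, with 61 of 64 tiles below 0, and -0.18 on the right, with 49 of 65. Tiles at -0.5 or less made up 62.3% of the left and 32.4% of the right flank, against 1.52% of the other arm tiles. Over the other arm tiles, those with a higher mean level tended to a more negative difference (rho -0.21). This relation was not computed within the flanks, and its part in their difference was not tested.

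The ChIP channel carried most of the difference. With each channel centred on its own array median, the ChIP signal of the left flank differed by -0.55 between wt OFF and wt ON and the input signal by 0.05. On the right the ChIP signal differed by -0.34 and the input by 0.04. In the first 6 kb of the left flank the ChIP signal differed by -1.07 and the input by 0.22, the largest input difference among these sets. A higher input lowers the ratio, and the ChIP value there is the part without it.

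In clr3-CDx2 cells, the flanks differed little between OFF and ON. The left flank had a median level of -0.08 in clr3-CDx2 OFF, against -0.24 in clr3-CDx2 ON, and the right flank 0.27 in both. The median difference was 0.14 on the left (0.08 to 0.19), with 97 of 130 tiles above 0, and 0.07 on the right (0.01 to 0.11), with 103 of 171. Over the other arm tiles it was 0.05, with 57.9% above 0, and over the rest of the left arm of chromosome III it was 0.08. Within 6 kb of the edge the difference was 0.13 on the left and -0.02 on the right, and neither sign held: without the tiles within 3 kb it was -0.11 on the left, and centred on the mode it was 0.12 on the right. Its largest bin was that at 24 to 36 kb on the left, with 0.37.

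**Figure D2:**
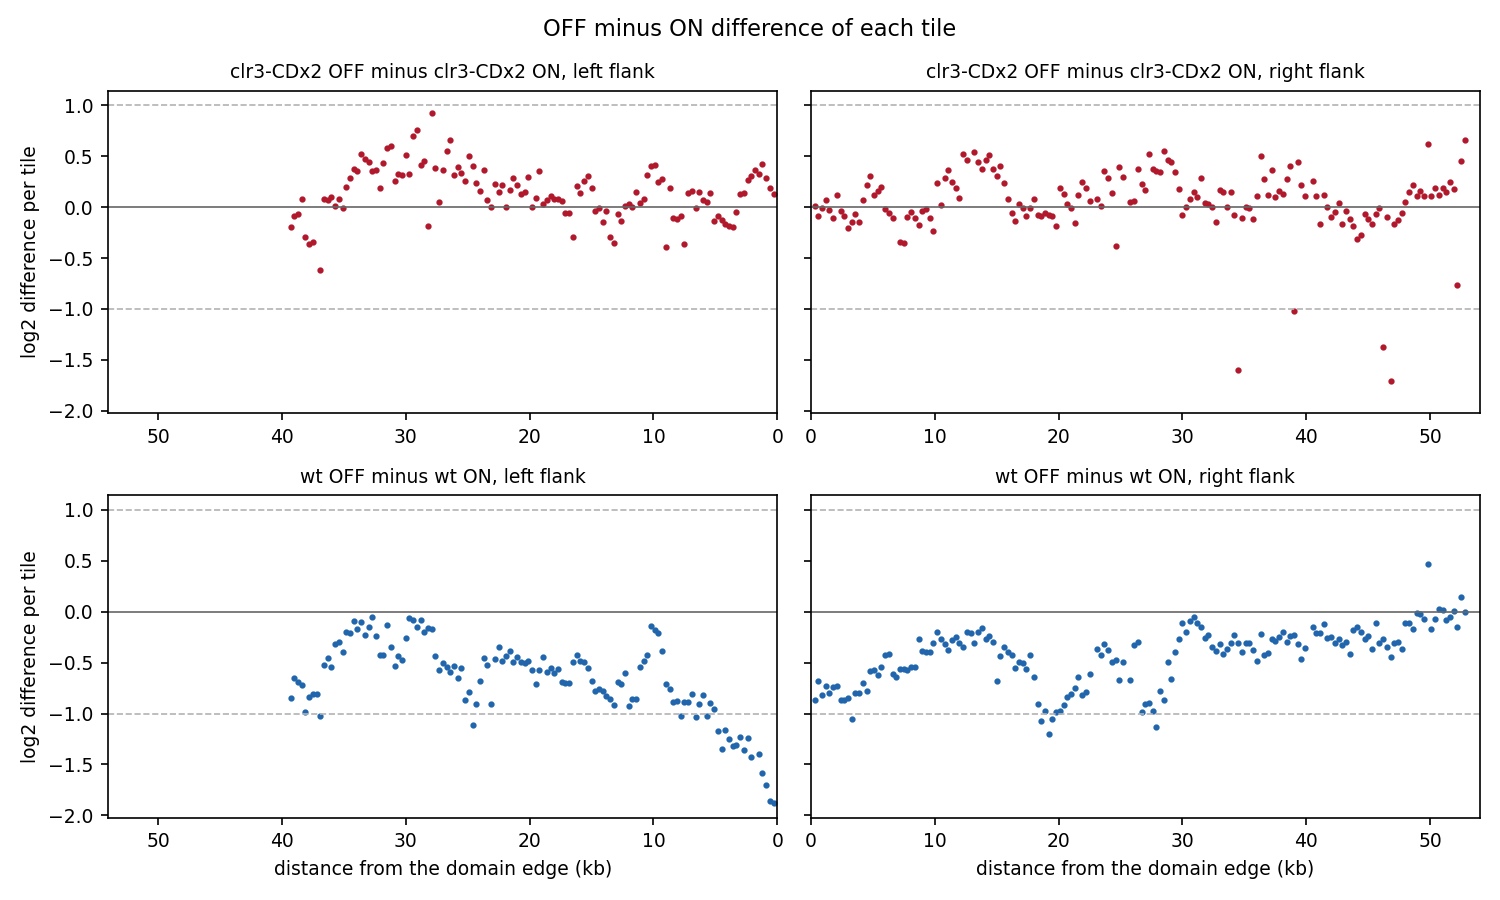
OFF minus ON difference of each flank tile (log2) against distance from the domain edge in kb, clr3-CDx2 in the upper panels and wt in the lower ones, left flank left and right flank right; dashed lines mark 2-fold. In wt the left tiles go down to -1.88 at the edge, while in clr3-CDx2 the tiles lie on both sides of 0, mostly above it at 24 to 36 kb on the left (median 0.37), with 4 separate right tiles below -1.

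The OFF minus ON difference of clr3-CDx2 exceeded that of wt by 0.74 on the left and 0.46 on the right (median over tiles of clr3-CDx2 minus wt), and by 0.01 over the other arm tiles. With 1 array per group this contrast has no error of its own.

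**Figure D3:**
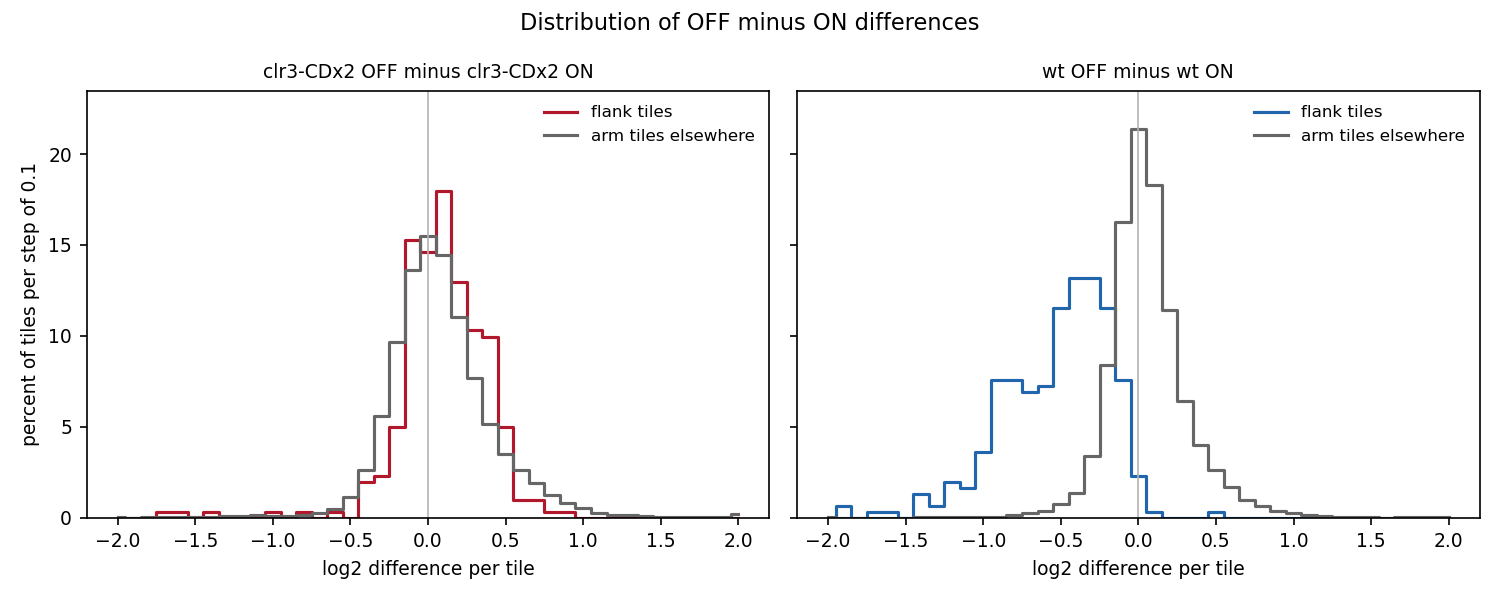
Percent of tiles (vertical axis) in steps of 0.1 of the OFF minus ON log2 difference (horizontal axis), for clr3-CDx2 on the left and wt on the right, coloured for the flank tiles and grey for the arm tiles elsewhere; values beyond 2 in either direction are counted in the outermost steps. In clr3-CDx2 the flank curve lies slightly to the right of the grey one (medians 0.10 and 0.05, with 66.4% and 57.9% of tiles above 0), and in wt it lies to the left (medians -0.48 and 0.04).

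The genotypes also differed within each state. In ON cells the flanks were lower in clr3-CDx2 than in wt: the median difference was -0.31 on the left, with 125 of 130 tiles below 0, and -0.11 on the right, with 131 of 174. Other arm tiles had a median of 0.00 with 49% below 0. The left difference was -0.47 within 6 kb, -0.42 at 6 to 12 kb, -0.14 at 12 to 24 kb and -0.50 at 24 to 36 kb, and the right one within 6 kb was -0.17 (-0.37 without the tiles within 3 kb). The right one stayed between -0.20 and 0.01 in every bin. A run at -0.5 or less covered 10 tiles from the left edge (3.0 kb), with the same tile not measured, and none from the right edge.

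In OFF cells the order was the other way round. The flanks were higher in clr3-CDx2 than in wt by 0.48 on the left, with 120 of 130 tiles above 0, and by 0.38 on the right, with 156 of 171, against 0.02 and 53.2% over the other arm tiles. Within 6 kb of the edge the difference was 0.81 on the left and 0.64 on the right, and it was 0.27 to 0.52 in all bins further out. Without the tiles within 3 kb of the edge the near value on the right was 0.34. These comparisons share arrays with those of OFF and ON, so their values follow in part from each other.

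Few flank tiles crossed 2-fold outside the wt comparison. Between wt OFF and wt ON, 20 of 130 left and 5 of 173 right tiles were at least 2-fold lower, 8.25% of the tiles measured in both, and none was 2-fold higher. Over the whole array 0.753% of tiles were at least 2-fold lower and 1.13% at least 2-fold higher in this comparison. Of the 20 left tiles, 16 lay within 6 kb of the edge, and the tile next to the edge, at 99000, showed the greatest difference: 0.77 in clr3-CDx2 OFF, 0.64 in clr3-CDx2 ON, -0.37 in wt OFF and 1.51 in wt ON. The 5 right tiles lay 3.3 to 27.9 kb out, 3 of them at 18.6 to 19.5 kb.

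Between clr3-CDx2 OFF and clr3-CDx2 ON, 4 right tiles were 2-fold lower and no tile was 2-fold higher, which is 1.33% of the 301 tiles and compares with 0.774% lower and 3.06% higher over the array. These 4 tiles, at 181500, 186000, 193200 and 193800, stood apart from their neighbours, and the array of clr3-CDx2 OFF also had the most spots marked non-uniform (578, against 190 to 261 on the other arrays). The part of spot quality in these differences was not tested. Between clr3-CDx2 ON and wt ON no flank tile crossed 2-fold in either direction, and 0.907% of all tiles were lower and 0.491% higher. Between clr3-CDx2 OFF and wt OFF, 7 flank tiles were 2-fold higher and 1 lower, 2.33% and 0.332% of 301, against 1.31% and 0.727% over the array. Of the 7, 5 were the left tiles at 0.3 to 2.1 kb.

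Tiles at a level of 1 or more were fewest in wt OFF and most numerous in wt ON. They numbered 46 of the flank tiles in clr3-CDx2 OFF (15.2%), 33 in clr3-CDx2 ON (10.8%), 19 in wt OFF (6.25%) and 58 in wt ON (19.0%). Over all tiles the shares were 16.6%, 14.9%, 13.4% and 12.8% in that order. The left flank had 11 such tiles in clr3-CDx2 OFF, 4 in clr3-CDx2 ON, 0 of 131 in wt OFF and 25 in wt ON. The right flank had 35, 29, 19 and 33. Tiles at 1 or more on all 4 arrays numbered 18 of 306 (5.88%), against 9.02% of the other arm tiles.

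Runs of 3 or more successive tiles at 1 or more fell into the same few places. Runs outside the flanks were not counted, so no share over the array stands beside these. On the right, runs around mde7 (at most 8.1 to 10.5 kb out), fft2 (36.3 to 39.0 kb) and hif2 and sec6 (47.7 to 51.6 kb) occurred in clr3-CDx2 OFF, clr3-CDx2 ON and wt ON. The runs at fft2 and sec6 also occurred in wt OFF, with 6 tiles each. A further run of 4 tiles, at 13.5 to 14.4 kb in SPCC320.05, met the rule in clr3-CDx2 OFF alone. The other arrays were not far below: the median of these tiles was 1.37 in clr3-CDx2 OFF, 0.94 in clr3-CDx2 ON, 0.91 in wt OFF and 1.16 in wt ON. On the left, 5 runs occurred in wt ON, 2 in clr3-CDx2 OFF and 1 in clr3-CDx2 ON, and none in wt OFF. The run nearest the left edge, 3 tiles at 95400 to 96000 in sen54, was seen in wt ON alone, where its median was 1.15, against 0.60 in clr3-CDx2 OFF, 0.68 in clr3-CDx2 ON and -0.16 in wt OFF.

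The flanks hold 37 annotated protein-coding genes, 18 on the left and 19 on the right, and each had at least 2 tiles. A gene's level is the median of its tiles. In wt, 37 of 37 genes were lower in OFF than in ON, with a median difference of -0.47, while 47.5% of the 4904 other genes were below 0. In clr3-CDx2, 16 were below and 21 above 0 (56.8% above, against 52.2% of the other genes). Between genotypes, 33 were lower in clr3-CDx2 ON than in wt ON (89.2%, against 45.6% of the other genes), and among OFF cells 34 had more H3K9me3 in clr3-CDx2 (91.9%, against 53.4%). Past 2-fold were 3 genes between wt OFF and wt ON and 1 between clr3-CDx2 OFF and wt OFF, and none in either other comparison. The shares over all 4941 measured genes, in either direction, were 1.3% between wt OFF and wt ON, 1.28% between clr3-CDx2 OFF and wt OFF, 1.82% between clr3-CDx2 OFF and clr3-CDx2 ON and 0.627% between clr3-CDx2 ON and wt ON.

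**Figure D4:**
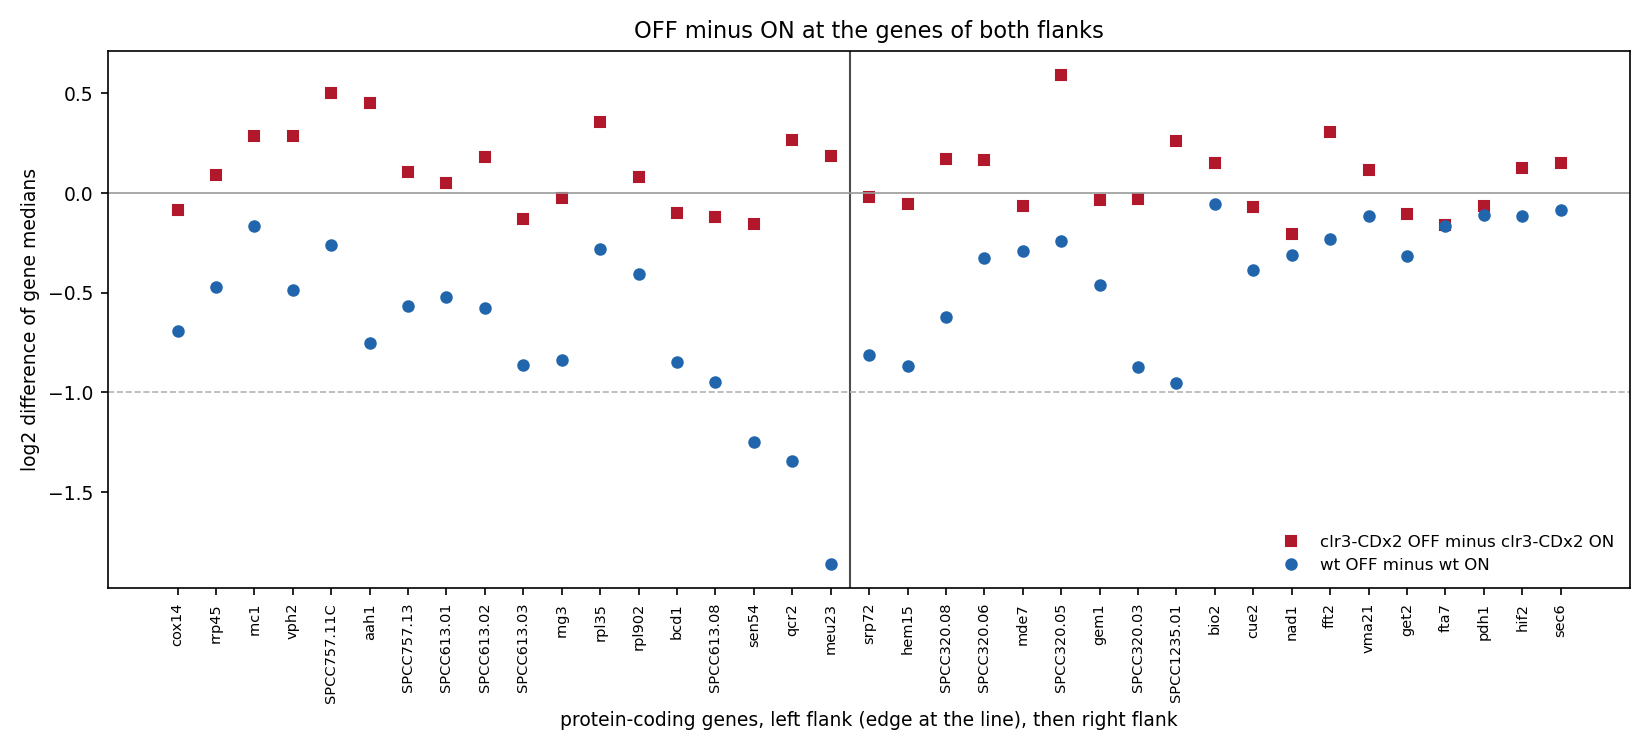
OFF minus ON difference of gene medians (log2) for the 37 protein-coding genes in chromosomal order, squares for clr3-CDx2 and circles for wt; the vertical line marks the place of the domain and the dashed line 2-fold. All circles lie below 0, lowest at meu23 (-1.86) left of the line, and the squares lie on both sides of 0.

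The genes next to the left edge carried the largest differences. meu23 (chrIII:98575-99547 in ASM294v3, minus strand) is a gene upregulated in meiosis. By the placement used, 3 of its 4 tiles lie in the flank and its far end lies inside the domain. meu23 had levels of 0.73 in clr3-CDx2 OFF, 0.55 in clr3-CDx2 ON, -0.51 in wt OFF and 1.35 in wt ON. The difference between wt OFF and wt ON was -1.86, and clr3-CDx2 OFF was higher than wt OFF by 1.25. Its tiles also read SPNCRNA.6704, an overlapping non-coding gene with -1.87 in wt, and the arrays do not tell the strands apart. qcr2 (chrIII:96627-98210, plus strand), which encodes a subunit of respiratory complex III, read 0.51, 0.24, -0.34 and 0.9998 in clr3-CDx2 OFF, clr3-CDx2 ON, wt OFF and wt ON. sen54 (chrIII:94657-96690, plus strand), for a subunit of the tRNA splicing endonuclease, read 0.47, 0.63, -0.32 and 0.93. All 3 were thus below the array median in wt OFF alone, and their differences in wt were -1.34 for qcr2 and -1.25 for sen54.

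Further out on the left, SPCC613.08 and bcd1, an assembly factor of box C/D snoRNPs, followed with -0.95 and -0.85 in wt. rpl902, a ribosomal protein gene 9.0 to 9.6 kb from the edge, read -0.85 in clr3-CDx2 OFF, -0.93 in clr3-CDx2 ON, -0.78 in wt OFF and -0.37 in wt ON. rpl35, its ribosomal neighbour, read -0.55, -0.91, -0.48 and -0.20. Both were below the array median on every array and differed in wt by only -0.41 and -0.28. rng3, a myosin chaperone just beyond them, differed by -0.84 and had the higher levels of 0.83, 0.85, 0.27 and 1.11, so the difference did not decline gene by gene. SPCC613.01, at 17.4 to 18.9 kb, was among the highest genes of clr3-CDx2 ON with 0.90.

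Beyond 21 kb on the left, the genes named for the largest clr3-CDx2 differences were below the array median on all arrays, though SPCC757.11C only slightly on 2 of them. aah1 read -0.71 in clr3-CDx2 OFF, -1.16 in clr3-CDx2 ON, -1.24 in wt OFF and -0.49 in wt ON. Its difference was 0.45 in clr3-CDx2 and -0.75 in wt. SPCC757.11C read -0.10, -0.59, -0.33 and -0.07, a difference of 0.50 in clr3-CDx2 and -0.26 in wt. In both genes the arrays of clr3-CDx2 OFF and wt ON lay above those of clr3-CDx2 ON and wt OFF.

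On the right, srp72 (chrIII:146165-148150, minus strand), for a protein of the signal recognition particle, crosses the edge by the same placement. It read 0.86 in clr3-CDx2 OFF, 0.87 in clr3-CDx2 ON, 0.08 in wt OFF and 0.89 in wt ON. hem15 (chrIII:148547-150734, minus strand), which encodes ferrochelatase, the last enzyme of haem synthesis, read 0.72, 0.78, -0.07 and 0.80. In both genes the 3 other arrays lay within 0.1 of each other and wt OFF lay below them, with differences in wt of -0.81 and -0.87. SPCC320.08 came next with 0.00, -0.16, -0.36 and 0.27, and a wt difference of -0.62.

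From 6 kb outwards on the right the wt difference was smaller at most named genes. SPCC320.06 differed by -0.32, and mde7, a meiotic RNA-binding protein gene that lies within its span, by -0.29. mde7 was among the 5 highest flank genes on each array, with 1.09 in clr3-CDx2 OFF, 1.15 in clr3-CDx2 ON, 0.92 in wt OFF and 1.21 in wt ON. SPCC320.05 had the largest clr3-CDx2 difference of all 37 genes, 0.59, with levels of 1.09, 0.50, 0.63 and 0.87. It was therefore highest in clr3-CDx2 OFF.

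SPCC1235.01, 26.7 to 29.1 kb out, broke this order, with -0.56 in clr3-CDx2 OFF, -0.82 in clr3-CDx2 ON, -1.39 in wt OFF and -0.44 in wt ON. Its wt difference of -0.95 exceeded those of both genes at the right edge. SPCC320.03, at 18.6 to 22.2 kb and chosen after its values were seen, had a similar pattern with -0.13, -0.10, -0.65 and 0.22, and a wt difference of -0.87. bio2, for biotin synthase and next to SPCC1235.01, differed by only -0.06 in wt, with levels of -0.67, -0.82, -0.59 and -0.54.

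Of the outer right genes, 3 were high on every array and differed little. fft2, for a Fun30-type chromatin remodeller, read 1.33 in clr3-CDx2 OFF, 1.03 in clr3-CDx2 ON, 0.98 in wt OFF and 1.21 in wt ON. hif2, for a subunit of the Set3 histone deacetylase complex, read 1.30, 1.17, 0.97 and 1.09. sec6, for a subunit of the exocyst, read 1.27, 1.11, 1.12 and 1.20. Their wt differences were -0.23, -0.11 and -0.08. get2, fta7 and pdh1, at 42.0 to 45.9 kb, were the genes with the largest positive difference between clr3-CDx2 ON and wt ON, 0.09, 0.20 and 0.15. fta7 and pdh1 were below the array median on every array, and fta7 read -0.39 in clr3-CDx2 OFF, -0.22 in clr3-CDx2 ON, -0.59 in wt OFF and -0.42 in wt ON. nad1, with -0.20, had the lowest gene difference between clr3-CDx2 OFF and clr3-CDx2 ON, and 1 of its 5 tiles is the low single tile at 181500.

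Tiles in protein-coding genes read higher than those between genes, while the wt difference was similar in both. The 241 tiles in protein-coding genes had medians of 0.42 in clr3-CDx2 OFF, 0.32 in clr3-CDx2 ON, -0.12 in wt OFF and 0.57 in wt ON. The 29 tiles between genes had -0.62, -0.83, -0.89 and -0.67, and the 36 tiles in non-coding genes alone -0.86, -0.72, -0.94 and -0.27. The OFF minus ON difference in wt was -0.48, -0.42 and -0.49 in these classes, and that in clr3-CDx2 0.11, 0.08 and 0.08. Median GC content was 37.3% in coding tiles and 32.3% between genes, and its part in the levels was not tested.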

How the data were processed

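Per the file headers, the authors read the arrays with version 12.0.3.1 of Agilent Feature Extraction. The deposited columns used are spot, background and dye-normalised processed intensity in each channel and a log10 ratio of the processed signals. The authors' deposited value table gives log2 of ChIP over input, equal to the log2 ratio of the processed signals and is not centred (medians 0.185 in clr3-CDx2 OFF, 0.296 in clr3-CDx2 ON, 0.173 in wt OFF and 0.234 in wt ON). Per the file headers, the 4 arrays lie on 1 slide. Batches of culture and precipitation are not given in the sources used here.

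From these, log2 ratios were centred on each array's median over 41551 tiles, with no loess or quantile step, and non-uniform spots were dropped from the array that marked them. No tile was saturated. Median input signal was 417 to 490 times background and ChIP signal 137 to 166 times, and precision is limited by the number of arrays. Tiles were placed on ASM294v3 by an offset per chromosome arm (for the left arm of III a correlation of input with GC content of 0.231 at the chosen offset and at most 0.102 further than 1 kb away). Python 3.11.15, pandas 2.3.3 and scipy 1.17.1 were used, and limma 3.58.1 for normexp (offset 50, on median signals). The medians over tiles were tested on simulated data with independent noise at each tile. Such data leave out the fragments that neighbouring tiles share, so the test cannot judge the width of the intervals.

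Named genes are those with at least 2 flank tiles that are among the 6 nearest each edge, the 5 highest on each array, past 2-fold while reaching 1 on an array compared, or the 3 largest rises and falls of each comparison. The flanks, lists and rules were chosen with earlier results of these data known. Sensitivity settings are given in the closing section.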

Additional observations from a re-analysis of the deposited data

Results flagged for a closer look

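The flank medians of OFF minus ON had opposite signs in the 2 genotypes. On the left flank the median difference was 0.14 in clr3-CDx2 and -0.58 in wt, and on the right flank it was 0.075 in clr3-CDx2 and -0.36 in wt. Each genotype had 1 array per state, so the difference between the genotypes was not tested. The clr3-CDx2 value of the right flank was close to that of the rest of the left arm of chromosome III (0.0837) and of all other arm tiles (0.0507), and it turned to -0.0369 with the uncentred deposited ratios.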

How the results depend on the processing

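For each flank difference 10 alternatives were run and the sign held in all of them except for clr3-CDx2 OFF minus ON on the right (9 of 10). A whole-flank value is named here where it left the 95% interval of the median over tiles, or where a count moved by over 1.5 times. With arrays centred on the mode, which lay above the median by 0.0904 in clr3-CDx2 OFF, 0.229 in clr3-CDx2 ON, 0.102 in wt OFF and 0.241 in wt ON, OFF minus ON was 0.28 (left) and 0.21 (right) in clr3-CDx2 and -0.44 (left) and -0.22 (right) in wt. With the uncentred deposited ratios it was 0.0316 and -0.0369 in clr3-CDx2 and, on the right, -0.42 in wt, and clr3-CDx2 ON minus wt ON was -0.25 (left) and -0.0498 (right). With the ChIP channel alone the left values were 0.23 for clr3-CDx2 OFF minus ON, 0.57 for clr3-CDx2 OFF minus wt OFF and -0.23 for clr3-CDx2 ON minus wt ON. With pericentromere scaling, clr3-CDx2 OFF minus wt OFF was 0.40 on the left, and on the right OFF minus ON was 0.00642 in clr3-CDx2 and -0.46 in wt. On the right, wt OFF minus wt ON was -0.43 with normexp and -0.43 as a mean over tiles. With the left arm of chromosome III set to zero, chosen after seeing the data, OFF minus ON in clr3-CDx2 was 0.0696 (left) and 0.00108 (right). The 37 tile calls past 2-fold, summed over the 4 comparisons, became 104 with normexp, 23 without the tiles within 3 kb of the edge and 230 at 1.5-fold, the last 2 by construction. In the other cases the cause was not tested. Within 6 kb of the edge, normexp gave -1.64 (left) and -0.97 (right) for wt OFF minus wt ON and 1.15 (left) and 0.81 (right) for clr3-CDx2 OFF minus wt OFF. With the ChIP channel alone wt OFF minus wt ON was -1.07 (left) and -0.64 (right). On the right it was -0.62 centred on the mode and -0.82 uncentred. There clr3-CDx2 OFF minus ON was 0.12 centred on the mode, -0.13 uncentred and -0.089 with the left arm set to zero. Pericentromere scaling gave 0.76 (left) for clr3-CDx2 OFF minus wt OFF. Without the tiles within 3 kb, the near values were -0.11 (left) for clr3-CDx2 OFF minus ON and -0.66 (right) for wt OFF minus wt ON. They were 0.75 (left) and 0.34 (right) for clr3-CDx2 OFF minus wt OFF and -0.37 (right) for clr3-CDx2 ON minus wt ON. No paired analysis was possible because each group has 1 array.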
